A study of Mus musculus with 83 samples.

Results

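The comparison described here set the colon of male C57BL/6J/Ukj mice at 24 months of age against that at 9 months, as a measure of late-life change from a mature adult baseline. Its members were the 17 mice whose columns in the count table carry the 24-month label and the 16 whose columns carry the 9-month label, 33 of the 83 mice of the study. The other mice were 3 (n = 16), 15 (n = 16) and 28 (n = 18) months old. All were untreated males of this inbred strain, kept for aging, and each was sampled once, so that age and birth cohort cannot be told apart. Polyadenylated RNA was taken from a proximal piece of the opened colon and made into stranded libraries in 3 library batches (prep 1, 2 and 3), which held 5, 6 and 6 of the mice at 24 months and 6, 5 and 5 of those at 9 months. Assigned read pairs totalled 25983591 to 56630493 a mouse at 9 months (median 34679003) and 27802569 to 50861544 at 24 months (median 36716280). Any 2 libraries of the same age differed by at least 11.75 times the sampling noise, so that none was counted as a copy of another of its age, and n counts mice.

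The colon is lined by an epithelium that stem cells at the base of the crypts renew throughout life. It holds absorptive colonocytes, mucus-secreting goblet cells, hormone-secreting enteroendocrine cells and chemosensory tuft cells. Under it lie fibroblasts, vessels, macrophages, lymphocytes and plasma cells that make antibody against gut bacteria, and around it smooth muscle with the neurons and glia of the enteric nervous system. RNA of such a piece is a mixture, and fewer cells of a type and less RNA per cell cannot be told apart in it.

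The tissue label was checked against defining genes. In the 33 mice, the goblet cell mucin Muc2 ranged from 15484 to 22888 CPM (read pairs of a gene per unit of library size, after TMM normalization) and the colonocyte carbonic anhydrase Car1 from 3579 to 10404 CPM. Lct, the lactase of the small intestine, was at most 0.318 CPM and Apoa4, an apolipoprotein of the small intestine, at most 0.475 CPM. Not all genes of the small intestine were near 0. Fabp2, also checked, ranged from 406 to 615 CPM. A list of Paneth and small intestinal genes summed to a median of 1450 CPM at 9 months and 1285 CPM at 24 months. By the summed CPM of marker lists, 2 sets of mice stood apart. The 3 mice at 9 months with replicate numbers 4, 6 and 13 had 2579, 3078 and 4001 CPM of 21 smooth muscle genes, where the other 30 mice had 5664 to 9326 CPM. The 2 mice at 24 months with replicate numbers 11 and 16 had 365 and 205 CPM of pancreatic acinar genes, where the other 31 had 55.1 to 76.6 CPM. Both mice belonged to library prep 3, and with them, but not without them, the acinar genes Cpb1 (log2 fold change 2.75, adjusted p = 0.00876) and Pnliprp1 (2.09, adjusted p = 0.0263) passed the test. Counts that follow were therefore also taken without the 3 mice and without the 2 mice, and are given where the number of calls differs by over 1.5 times or a list is described at length.

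**Figure D1:**
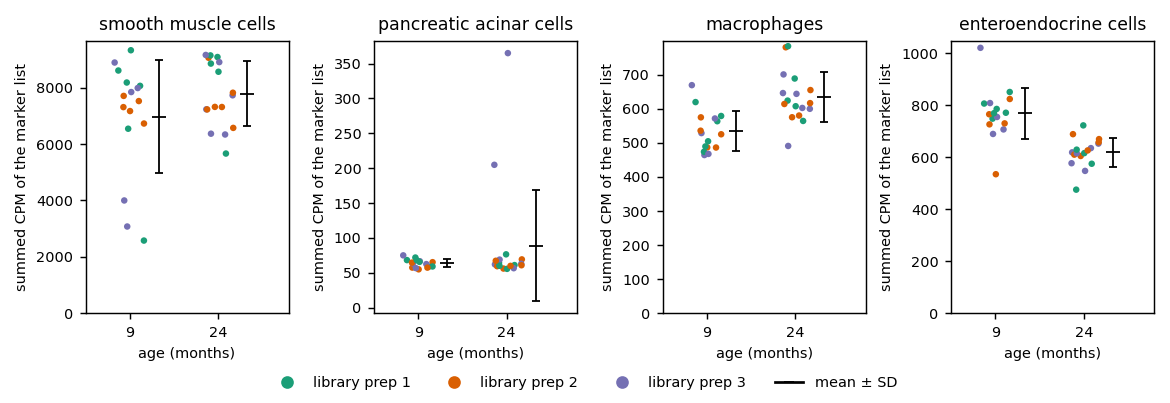
Summed CPM of 4 marker lists (y axis, from 0) in each of the 16 mice at 9 months and 17 mice at 24 months (x axis), colored by library prep, with the mean and SD beside the points. The smooth muscle sums of 3 mice at 9 months lie between 2579 and 4001, below those of the other 30 mice, and the acinar sums of 2 mice at 24 months lie at 205 and 365, above those of the other 31.

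Log2 fold changes are given as 24 against 9 months, so that a positive value is a higher level at 24 months. Of 18325 genes tested, 2837 differed between 9 and 24 months (edgeR quasi-likelihood test, Benjamini-Hochberg adjusted p below 0.1), which is 15.5% of the genes tested. Of these, 1636 were higher at 24 months (8.93%) and 1201 lower (6.55%). Most changes were small. The median absolute log2 fold change of the genes that passed was 0.26, 350 of them changed by more than 1.5-fold, and 117 by more than 2-fold, of which 90 were higher and 27 lower. The direction was the same within each of the 3 library preps for 2782 of the 2837 genes. The test of the age by prep interaction in the 33 mice found 0 genes (edgeR, 0% of genes at an adjusted p below 0.1, 387 at an unadjusted p below 0.05). With 5 or 6 mice per age and prep, 0 calls do not show that the preps agree. Leaving out the 3 mice low in smooth muscle RNA, 1929 genes passed, 1824 of them among the 2837, and all 2837 kept their direction. Leaving out the 2 mice with acinar RNA, 2236 passed, 2160 of them among the 2837, and 2833 of the 2837 kept their direction. In 27 genes (0.147% of those tested) all 17 mice at 24 months lay on one side of all 16 mice at 9 months, 18 of them higher and 9 lower at 24 months.

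Among genes that average at least 1 CPM over the 33 mice and are no antigen receptor segment or predicted gene, the 2 largest rises were those of genes for developmental transcription factors, which in the 9-month colon were at or near 0. Dmrta2, a doublesex-related factor known from the developing cerebral cortex (chromosome 4, 109978053 to 109983687, plus strand, GRCm38), ranged from 0.232 to 0.814 CPM (median 0.537) at 9 months and from 7.31 to 13.5 CPM (median 10.1) at 24 months. The groups were far apart, and the change was of like size in each prep (log2 fold change 4.20, SE 0.13, adjusted p = 4.08e-43; 4.43, 4.32 and 3.89 in preps 1, 2 and 3). Tfap2a, which encodes AP-2 alpha, a factor of the neural crest and the skin (chromosome 13, 40715302 to 40738376, minus strand), ranged from 0 to 0.250 CPM (median 0.0651) at 9 months and from 1.96 to 2.74 CPM (median 2.38) at 24 months (log2 fold change 4.90, SE 0.20, adjusted p = 2.78e-35). At 9 months, 42 read pairs fell on Tfap2a over the 16 mice, with 8 in the highest and none in 2 mice, and at 24 months 1480 over the 17 mice, with at least 63 in each.

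Both genes were also followed through the other ages. Dmrta2 was at 0.277 ± 0.105 CPM (mean ± SD, n = 16) at 3 months, 2.44 ± 0.737 (n = 16) at 15 months and 12.2 ± 1.54 (n = 18) at 28 months. Tfap2a was at 0.0796 ± 0.0543 CPM (n = 16) at 3 months, 0.172 ± 0.0594 (n = 16) at 15 months and 3.86 ± 0.660 (n = 18) at 28 months. The 15-month mice thus lay close to the 9-month mice for Tfap2a, and between the 9-month and 24-month mice for Dmrta2.

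**Figure D2:**
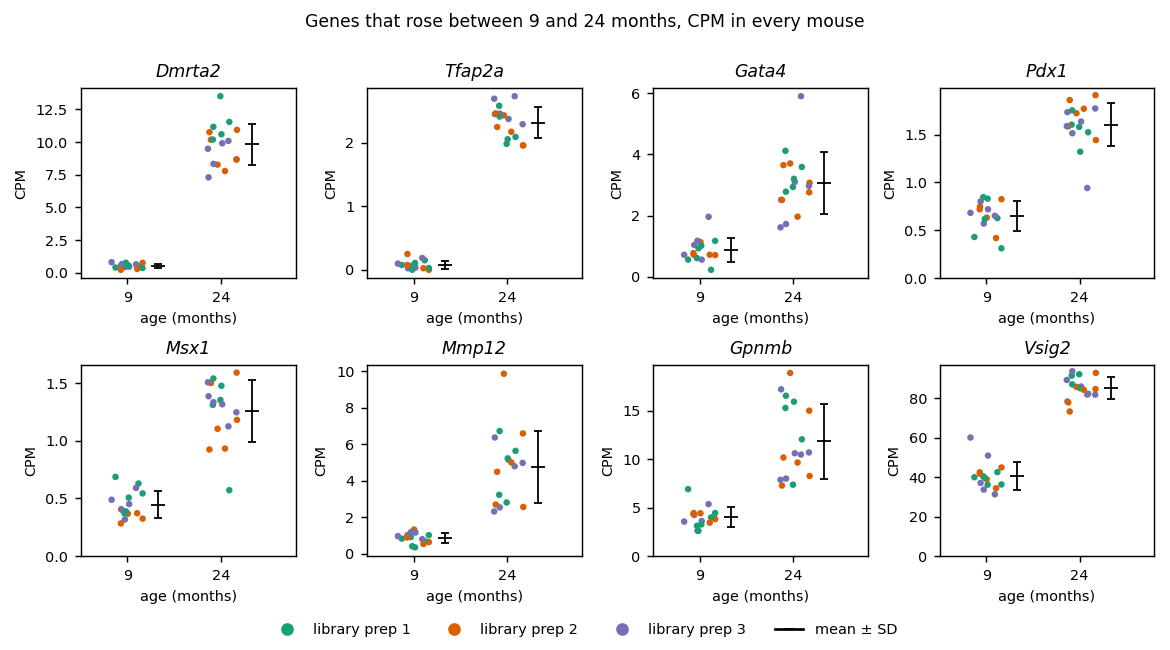
CPM (y axes, linear) of 8 genes that rose, in every mouse at 9 months (n = 16) and 24 months (n = 17), colored by library prep, with the mean and SD beside the points. For Dmrta2, Tfap2a, Pdx1, Mmp12, Gpnmb and Vsig2 no mouse at 24 months lies as low as any mouse at 9 months, while for Gata4 and Msx1 the groups touch.

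The promoters of Tfap2a and Dmrta2 are shown with that of Mmp12, a gene of macrophages that rose without overlap between the ages. They are RefSeq windows of 300 bases, 250 before and 50 after the gene start, on GRCm38.p6, written 5′ to 3′ on the strand of the gene with each CpG dinucleotide in capitals. The windows are those listed first, of 2 listed for Tfap2a and for Mmp12 and 1 for Dmrta2, and the Tfap2a window lies at a start inside the annotated gene.
Dmrta2, chr4:109977775-109978074, plus strand: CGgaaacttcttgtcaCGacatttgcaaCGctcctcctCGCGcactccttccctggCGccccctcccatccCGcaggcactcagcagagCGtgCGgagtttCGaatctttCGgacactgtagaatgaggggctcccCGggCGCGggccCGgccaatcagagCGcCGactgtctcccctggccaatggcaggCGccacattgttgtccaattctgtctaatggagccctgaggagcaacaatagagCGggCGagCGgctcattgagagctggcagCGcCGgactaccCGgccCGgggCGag
Tfap2a, chr13:40734871-40735170, minus strand: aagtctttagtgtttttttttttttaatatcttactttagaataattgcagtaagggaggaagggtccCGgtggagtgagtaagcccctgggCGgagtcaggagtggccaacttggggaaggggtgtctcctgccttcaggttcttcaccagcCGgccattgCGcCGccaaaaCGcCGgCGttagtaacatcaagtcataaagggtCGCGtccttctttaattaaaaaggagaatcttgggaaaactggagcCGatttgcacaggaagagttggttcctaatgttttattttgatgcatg
Mmp12, chr9:7344147-7344446, plus strand: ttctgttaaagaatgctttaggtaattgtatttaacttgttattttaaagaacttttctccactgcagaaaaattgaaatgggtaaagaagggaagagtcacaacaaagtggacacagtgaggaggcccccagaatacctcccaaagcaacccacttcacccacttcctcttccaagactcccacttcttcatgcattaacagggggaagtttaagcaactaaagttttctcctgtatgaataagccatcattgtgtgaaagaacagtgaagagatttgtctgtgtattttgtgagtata
The Dmrta2 window held 26 CpG dinucleotides, the Tfap2a window 11 and the Mmp12 window 0. Over the 12709 tested genes with a window, the median was 19. It was 14 over the 1139 genes with a window that were higher at 24 months and 18 over the 894 that were lower. The palindrome GCCNNNGGC, a form of the AP-2 site that reads alike on both strands, occurred in 287 (25.2%) of the windows of genes that were higher, in 188 (21.0%) of those that were lower and in 3045 (24.0%) of all tested genes with a window. These are descriptions of the windows, with no test.

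Other factors of early development rose at lower fold. Gata4, a zinc finger factor that in the adult gut is most active in the proximal small intestine, ranged from 0.227 to 1.96 CPM at 9 months (median 0.746) and from 1.61 to 5.90 CPM at 24 months (median 2.97), and 15 of 17 mice at 24 months lay above every mouse at 9 months (log2 fold change 1.82, SE 0.22, adjusted p = 1.32e-09). Pdx1, a homeobox factor of pancreas and duodenum, ranged from 0.315 to 0.848 CPM at 9 months (median 0.668) and from 0.943 to 1.91 CPM at 24 months (median 1.60), without overlap (log2 fold change 1.28, SE 0.16, adjusted p = 2.49e-09). Pou4f1, a homeobox factor of sensory neurons, rose by 0.94 on the log2 scale (adjusted p = 1.25e-12), from a median of 1.28 to 2.43 CPM. Msx1, a homeobox factor of limb and facial mesenchyme, rose by 1.49 (adjusted p = 2.77e-15), from a median of 0.404 to 1.32 CPM. The endothelial factor Sox17 rose less, by 0.39 (adjusted p = 0.00241).

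The list of Tfap2, Sox, Fox and other patterning factors as a whole did not move one way. Of its 31 tested members 6 rose (Tfap2a, Gata4, Msx1, Msc, Sox8 and Sox17) and 6 fell (Pax6, Foxl1, Hnf4g, Foxa3, Foxa1 and Cdx1), with a median log2 fold change of 0.04 beside 0.00 over all tested genes. The 6 that fell are all known from the gut, as is Gata4 among the 6 that rose. Pax6, needed for proglucagon cells, fell by 0.47 on the log2 scale (adjusted p = 0.00309), Foxl1, a marker of telocytes, by 0.27 (adjusted p = 0.0539) and the enterocyte factor Hnf4g by 0.26 (adjusted p = 0.0639). Leaving out the 3 mice low in smooth muscle RNA, 6 rose and 2 fell, and without the 2 mice with acinar RNA 6 rose and 4 fell. Of 13 tested posterior Hox genes, which set position along the body axis, 1 passed the test, Hoxb9 (-0.13, adjusted p = 0.0625). Cdx2, a factor of intestinal identity, differed by -0.07 (adjusted p = 0.54).

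Genes of macrophages rose. Of 23 tested members of the list 14 were higher and 1 lower at 24 months (median log2 fold change 0.29), and the median was 0.29, 0.30 and 0.15 within the 3 preps. The counts were 10 and 1 without the 3 mice low in smooth muscle RNA, and without the 2 mice with acinar RNA 11 and 1. C1qa, C1qb and C1qc are counted among the complement genes too, and Lyve1 among the endothelial genes. Gpnmb, a glycoprotein of lipid-laden phagocytes, ranged from 2.60 to 6.89 CPM at 9 months (median 3.89) and from 7.26 to 18.9 CPM at 24 months (median 10.6), without overlap (log2 fold change 1.57, SE 0.16, adjusted p = 1.25e-12). Trem2, a lipid-sensing receptor, rose from a median of 1.20 to 2.16 CPM (log2 fold change 0.87, SE 0.12, adjusted p = 8.42e-08), and Cx3cr1, the fractalkine receptor of resident macrophages, from a median of 13.8 to 20.6 CPM (log2 fold change 0.54, SE 0.10, adjusted p = 1.48e-04). Osteopontin (Spp1) was the member that went the other way, from a median of 2.07 to 0.780 CPM, with 13 of 17 mice at 24 months below every mouse at 9 months (log2 fold change -1.34, SE 0.24, adjusted p = 3.29e-05). Mmp12, the macrophage elastase, ranged from 0.362 to 1.33 CPM at 9 months (median 0.914) and from 2.33 to 9.87 CPM at 24 months (median 4.99) (log2 fold change 2.44, SE 0.21, adjusted p = 5.35e-16). Its lowest mouse at 24 months was above the highest at 9 months, and the 15-month mice, at 1.06 ± 0.367 CPM (mean ± SD, n = 16), were near the latter. Atp6v0d2, a proton pump subunit of macrophages and osteoclasts, rose by 1.42 on the log2 scale (adjusted p = 3.11e-07), from a low median of 0.197 to 0.549 CPM. Its rise was the largest among the 47 lysosomal genes tested. Of these 6 rose and 4 fell, beside 8.93% higher and 6.55% lower over all genes tested.

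Complement genes rose as broadly. Complement tags microbes and cell debris for uptake, and in the colon its parts are made by stromal cells, macrophages and epithelium. Of 26 tested members 15 were higher and 0 lower (median 0.33), and all 26 had a log2 fold change above 0. The counts were the same without the 3 mice and without the 2 mice. The central component C3 ranged from 37.1 to 140.3 CPM at 9 months (median 55.1) and from 64.1 to 199 CPM at 24 months (median 92.7), with overlap (log2 fold change 0.79, SE 0.17, adjusted p = 5.84e-04). C4b, of the classical and lectin pathways, ranged from 39.4 to 71.2 CPM at 9 months (median 51.3) and from 65.3 to 89.9 CPM at 24 months (median 74.9), and 14 of 17 mice at 24 months exceeded every mouse at 9 months (log2 fold change 0.56, SE 0.09, adjusted p = 1.63e-06).

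Genes of IgG and IgM constant regions rose, with wide spread between mice. B cells switch the constant region of their antibody from IgM to IgG or IgA before they become plasma cells, and IgA is the main antibody of the gut. Of 22 tested plasma cell genes 10 were higher and 1 lower (median 0.46), but the median was 0.82 and 0.54 in preps 1 and 2 and 0.03 in prep 3. The age by prep interaction, tested gene by gene over all genes, passed 0 genes. It also passed 0 of the 3 tested acinar genes, whose medians were -0.04, -0.04 and 4.24 within the preps. With 5 or 6 mice per age and prep, it cannot show that the preps agree. Ighm, the constant region of IgM, was at 36.7 ± 16.4 CPM (mean ± SD, n = 16) at 9 months and 72.2 ± 51.7 CPM (n = 17) at 24 months (log2 fold change 0.97, adjusted p = 0.00764). Igha, the constant region of IgA, did not pass, with 2962 ± 976 CPM (mean ± SD, n = 16) at 9 months and 3729 ± 1586 CPM (n = 17) at 24 months (log2 fold change 0.34, SE 0.19, adjusted p = 0.267). The 1 member that fell was Txndc5, a disulfide isomerase of secretory cells (-0.10, adjusted p = 0.0314). The IgG2c constant region Ighg2c ranged from 113 to 351 CPM at 9 months (median 167) and from 177 to 746 CPM at 24 months (median 473), and 12 of 17 mice at 24 months lay above every mouse at 9 months (log2 fold change 1.41, SE 0.20, adjusted p = 9.65e-08). Ighg2b rose from a median of 112 to 208 CPM (log2 fold change 1.12, adjusted p = 1.92e-04). Ighg1 ranged from 2.30 to 31.0 CPM (median 6.95) at 9 months and from 2.88 to 487 CPM (median 23.8) at 24 months, so that the older mice spread far more widely (log2 fold change 2.78, SE 0.53, adjusted p = 1.40e-04). Of 175 tested immunoglobulin V genes 31 were higher and 2 lower. In the median gene of these 31, 1 mouse held 33.3% of the CPM summed over the 17 mice at 24 months. The mean of Ighg2c was highest at 24 months among the 5 ages (465 ± 180.0 CPM, n = 17), with 380.3 ± 176 CPM (n = 18) at 28 months.

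Other lists of immune cells and immune genes were also counted. Their counts stand beside 8.93% higher and 6.55% lower over all genes tested. The interferon-stimulated list did not exceed the background, with 10.7% of its tested members called beside 15.5% of all genes. Of 26 T cell genes 5 rose and 0 fell, among them Foxp3, the factor of regulatory T cells (0.71, adjusted p = 0.00109), the pore protein Prf1 (0.47, adjusted p = 0.0309) and Cd2 (0.38, adjusted p = 0.0836). Of 12 MHC class II genes 4 rose, led by the invariant chain Cd74 (0.44, adjusted p = 0.068), H2-DMb1 (0.44, adjusted p = 0.0755) and H2-Aa (0.43, adjusted p = 0.0782). The test passed 0 of the 12 without the 3 mice low in smooth muscle RNA, and the median log2 fold change of the list was 0.35 in place of 0.33. Of 28 MHC class I genes 7 rose and 1 fell, with H2-Q6 (0.54, adjusted p = 0.00196), H2-Q10 (0.51, adjusted p = 9.55e-04) and the transactivator Nlrc5 (0.50, adjusted p = 0.0164) the largest rises and the peptide trimming enzyme Erap1 the fall (-0.12, adjusted p = 0.0628), and 5 rose and 0 fell without the 3 mice. The H2-Q genes are near-identical copies, so that reads could be split between them. Of 56 interferon-stimulated genes 5 rose and 1 fell, with Ifi27l2a (0.63, adjusted p = 0.0186) and the guanylate binding proteins Gbp4 (0.41, adjusted p = 0.0474) and Gbp5 (0.36, adjusted p = 0.0658) as the largest rises and the tryptophan enzyme Ido1 as the fall (-0.77, adjusted p = 0.0296), and 3 rose and 1 fell without the 3 mice. Of 39 chemokine genes 9 rose and 2 fell. Ccl22, which draws regulatory T cells, rose (0.69, adjusted p = 0.00406), as did Cxcl14 (0.54, adjusted p = 0.0374). The lymphocyte chemokine Xcl1 (-0.80, adjusted p = 0.00706) and Ccl6 (-0.39, adjusted p = 6.47e-06) fell. Mcpt1, a protease of mucosal mast cells, ranged from 0.991 to 7.51 CPM at 9 months (median 2.13) and from 1.28 to 28.2 CPM at 24 months (median 3.61) and rose by 1.11 (adjusted p = 0.0484), but its adjusted p was 0.116 without the 3 mice. It and Mcpt4 (0.94, adjusted p = 0.0873) were the 2 of 7 mast cell genes that passed. The neutrophil alarmins S100a9 (1.88, adjusted p = 3.42e-05) and S100a8 (1.43, adjusted p = 0.00287) rose at very low levels, with at most 1.27 and 1.09 CPM at 24 months.

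Most genes of blood and lymph vessels were higher at 24 months. Of 23 tested endothelial genes 14 were higher and 0 lower (median 0.19; 0.18, 0.16 and 0.26 within the preps), and without the 3 mice 13 and 0. Von Willebrand factor, Vwf, which endothelial cells store for clotting, ranged from 19.6 to 29.3 CPM at 9 months (median 22.7) and from 25.9 to 39.4 CPM at 24 months (median 31.0) (log2 fold change 0.44, SE 0.07, adjusted p = 4.25e-06). Sox7, a partner of Sox17 in endothelial cells, rose as well (0.38, adjusted p = 0.0219). The summed CPM of the list ranged from 348 to 448 at 9 months and from 407 to 476 at 24 months.

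Matrix genes rose more often than they fell. Fibroblasts and smooth muscle make the collagens, proteoglycans and elastic fibers that give the colon wall its strength. Of 49 tested genes for elastic fibers, lysyl oxidases and other matrix proteins 22 were higher and 2 lower (median 0.19), but 14 and 2 without the 3 mice low in smooth muscle RNA and 15 and 2 without the 2 mice with acinar RNA. The collagen-binding Fmod (0.75, adjusted p = 0.00169), the elastic fiber protein Ltbp2 (0.58, adjusted p = 0.00395) and Thbs2, a thrombospondin (0.48, adjusted p = 0.00283), rose most. Fbn2 (-0.40, adjusted p = 0.037) and Postn, periostin (-0.22, adjusted p = 0.0138), fell. Of 36 collagens 8 rose and 2 fell, without the 3 mice 4 and 1, and without the 2 mice 4 and 2. Col6a5 ranged from 7.57 to 14.7 CPM at 9 months (median 9.90) and from 12.3 to 27.5 CPM at 24 months (median 17.3) (log2 fold change 0.80, SE 0.12, adjusted p = 3.19e-07), with 14 of 17 mice at 24 months above every mouse at 9 months. Col5a3 (0.34, adjusted p = 0.0263) and Col27a1 (0.33, adjusted p = 0.0157) rose less. Col8a1 (-0.67, adjusted p = 0.00174) and Col4a5 of the basement membrane (-0.21, adjusted p = 0.0566) fell. Of 24 metalloproteinases and their inhibitors 7 rose, after Mmp12 most of all Mmp23 (0.37, adjusted p = 8.52e-04) and Mmp19 (0.36, adjusted p = 0.00822), and 1 fell, Mmp15 (-0.15, adjusted p = 0.0954). Of 23 fibroblast and telocyte genes 6 rose, with C3, the BMP antagonist Grem1 (0.47, adjusted p = 0.00262) and decorin, Dcn (0.36, adjusted p = 0.00232), leading. The 3 that fell were Foxl1, Wnt5a (-0.22, adjusted p = 0.0543) and Bmp7 (-0.15, adjusted p = 0.0952). The counts were 5 and 0 without the 3 mice and 4 and 2 without the 2 mice.

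Smooth muscle genes were not shown to change. Of 21 tested, 1 passed, higher at 24 months, and 0 did without the 3 mice, where the median log2 fold change of the list was -0.01 in place of 0.15. Mylk, the kinase that starts contraction, differed by 0.10 (adjusted p = 0.605). The counts of the lists that follow stand beside 8.93% higher and 6.55% lower over all genes tested. Of the neuron, glial and interstitial cell genes 11.1%, 13.3% and 10% passed, no more than the 15.5% of all genes. Of 27 enteric neuron genes 0 rose and 3 fell, which were Gdap1l1 (-0.36, adjusted p = 0.0786), Scg3 of secretory granules (-0.33, adjusted p = 0.0926) and the vasoactive intestinal peptide Vip (-0.32, adjusted p = 0.0456). Of 15 glial genes 1 rose, Artn (0.26, adjusted p = 0.0398), and 1 fell, the endothelin receptor Ednrb (-0.25, adjusted p = 0.0334). Of 10 genes of interstitial cells 1 rose, Prkcq (0.36, adjusted p = 0.0468). Clustered protocadherins, which give neurons their surface identity, rose in 16 and fell in 2 of 42 tested members (median 0.22), and rose in 9 and fell in 2 without the 3 mice. These genes are close copies of one another, and those of the gamma cluster share exons, so that single members are uncertain. Pcdhb16 ranged from 0.826 to 1.88 CPM at 9 months (median 1.36) and from 2.04 to 3.84 CPM at 24 months (median 2.79), without overlap (log2 fold change 1.05, SE 0.11, adjusted p = 8.70e-12). Pcdhb12 (0.66, adjusted p = 0.00238) and Pcdhb17 (0.56, adjusted p = 6.21e-06) followed. Pcdhga9 (-0.39, adjusted p = 0.0747) and Pcdhga7 (-0.34, adjusted p = 0.037) fell. Of 55 axon guidance genes 9 rose, with Slit3 (0.56, adjusted p = 2.26e-04), Plxnd1 (0.34, adjusted p = 1.01e-05) and Sema3d (0.29, adjusted p = 0.0349) first. The 3 that fell were Dab1, the adaptor of reelin signaling (-0.84, adjusted p = 2.26e-05), Unc5a (-0.36, adjusted p = 4.10e-05) and Sema4a (-0.15, adjusted p = 0.0455).

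**Figure D3:**
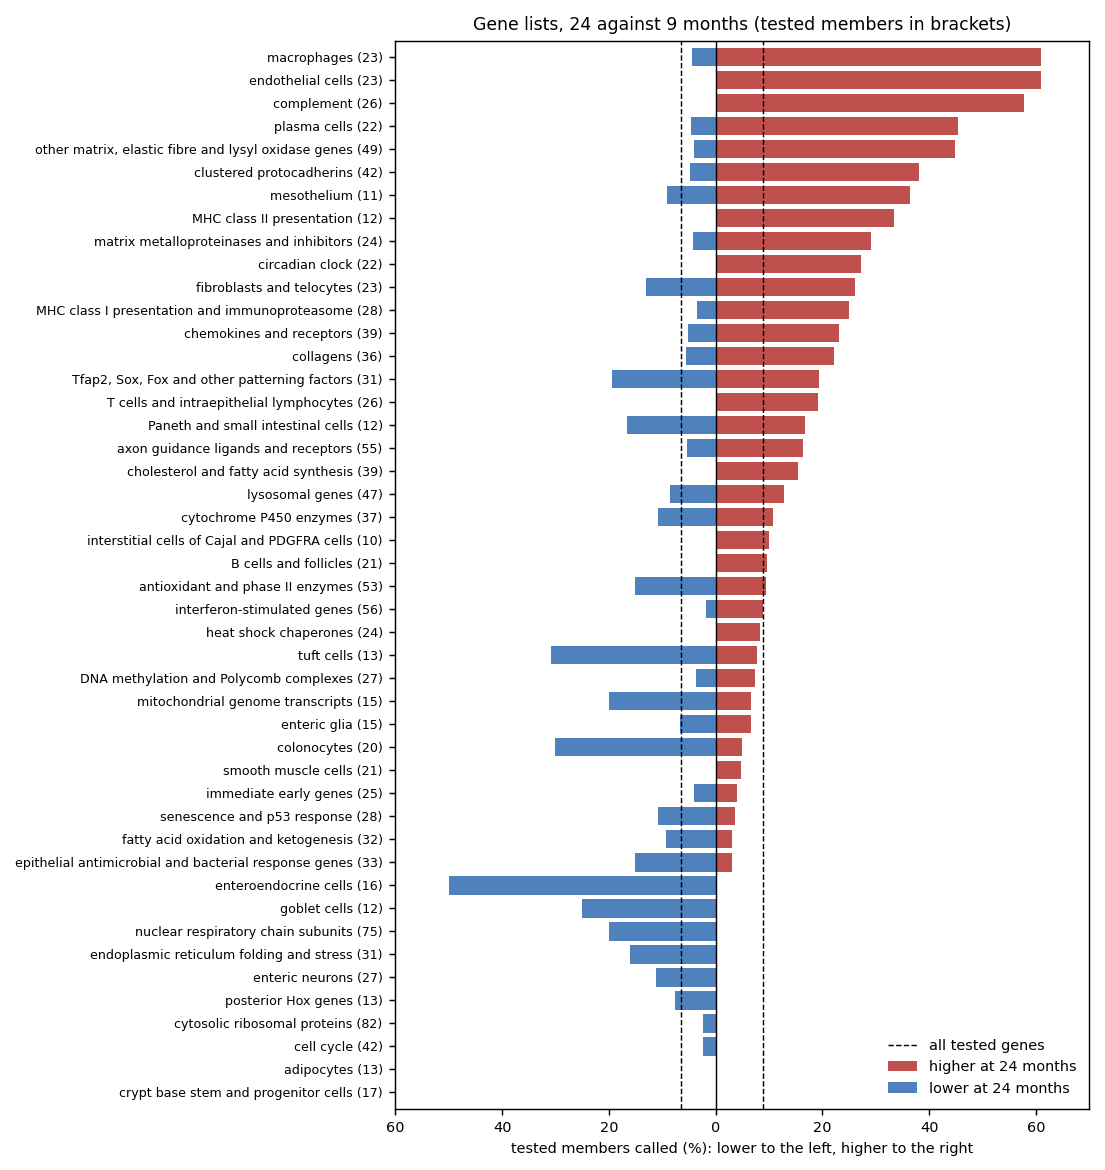
Share of the tested members of each gene list (in brackets their number, lists of 10 or more) that were higher (to the right, %) or lower (to the left, %) at 24 than at 9 months at an adjusted p below 0.1. The dashed lines mark 8.93% and 6.55%, the shares over all 18325 genes, and macrophage, endothelial and complement genes stand farthest to the right and enteroendocrine genes farthest to the left.

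Enteroendocrine genes fell. These scattered cells sense the gut content and release peptide hormones. Of 16 tested members 0 rose and 8 fell (median -0.22; -0.33, -0.12 and -0.28 within the preps), which were Nts, Gcg, Insl5, Neurod1, Chga, Sct, Pcsk1 and Chgb. The number that fell was 8 without the 3 mice and 7 without the 2 mice. Gcg, which encodes proglucagon and so the peptide GLP-1, ranged from 48.6 to 90.5 CPM at 9 months (median 67.3) and from 25.5 to 49.2 CPM at 24 months (median 39.5) (log2 fold change -0.77, SE 0.07, adjusted p = 8.23e-14), and 16 of 17 mice at 24 months lay below every mouse at 9 months. Nts, neurotensin, fell from a median of 28.2 to 14.7 CPM, again with 16 of 17 mice below (log2 fold change -0.99, SE 0.13, adjusted p = 1.06e-08). Insl5, a hormone of distal colon cells, fell from a median of 3.44 to 2.31 CPM (log2 fold change -0.56, SE 0.16, adjusted p = 0.0146). Gcg was lower at each age after 9 months. It was at 62.3 ± 8.74 CPM (n = 16) at 3 months, 54.3 ± 7.47 (n = 16) at 15 months and 32.4 ± 6.07 (n = 18) at 28 months, and the values at 3 and 9 months overlapped widely.

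Other epithelial lists were lower in part. Their counts stand beside 8.93% higher and 6.55% lower over all genes tested. The antimicrobial list was near the background, with 18.2% of its tested members called beside 15.5% of all genes. Of 20 colonocyte genes 1 rose, Ms4a10 (0.71, adjusted p = 0.00232), and 6 fell. Among the latter were Atp12a, the proton-potassium pump of the distal colon (-1.07, adjusted p = 0.047, from 1.23 to 42.6 CPM at 9 months and from 1.37 to 15.5 CPM at 24 months, with a log2 fold change of -0.07 in prep 3), Car1 (-0.33, adjusted p = 0.0152) and the sodium channel subunit Scnn1b (-0.33, adjusted p = 0.00641). Of 12 goblet cell genes 3 fell, Ccn3 (-0.37, adjusted p = 0.0146), Agr2, an isomerase that folds mucin (-0.31, adjusted p = 5.98e-04), and Galnt12, which begins mucin glycosylation (-0.09, adjusted p = 0.0767), and 0 rose. Fcgbp, a mucus protein, differed by -0.10 (adjusted p = 0.6). Of 13 tuft cell genes 4 fell, with Rgs13 (-0.34, adjusted p = 0.0176), the taste channel Trpm5 (-0.26, adjusted p = 0.0173) and the tuft cell factor Pou2f3 (-0.23, adjusted p = 0.0732) first, and 1 rose, the cyclooxygenase Ptgs1 (0.26, adjusted p = 0.00354). Leaving out the 3 mice, 2 rose and 1 fell. Of 33 antimicrobial and bacterial response genes 1 rose, lipocalin Lcn2 (0.43, adjusted p = 0.0048), and 5 fell, with Saa1 (-0.53, adjusted p = 0.0456) and the glycosyltransferase B4galnt2 (-0.22, adjusted p = 0.0444) after S100g. In contrast, of 17 stem and progenitor genes 0 passed in edgeR (3 at an unadjusted p below 0.05) and 0 by DESeq2, and Prom1, the most counted of them, differed by -0.06 (adjusted p = 0.413). Of 42 cell cycle genes 1 passed, the mitotic kinase Aurka (-0.20, adjusted p = 0.0816).

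Other rises were among those of lowest p or of largest fold. Vsig2, a surface protein of the immunoglobulin superfamily, ranged from 31.3 to 60.1 CPM at 9 months (median 39.8) and from 73.3 to 93.7 CPM at 24 months (median 85.1), without overlap and by a similar amount in each prep (log2 fold change 1.06, SE 0.05, adjusted p = 1.24e-28; 1.16, 1.04 and 1.00). It was at 21.7 ± 2.52 CPM at 3 months (n = 16), 55.3 ± 5.24 at 15 months (n = 16) and 95.6 ± 7.06 at 28 months (n = 18), so that its level was higher at each later age. Parp3, an enzyme of the response to DNA breaks, ranged from 26.1 to 40.6 CPM at 9 months (median 34.6) and from 44.5 to 58.2 CPM at 24 months (median 47.9), without overlap (log2 fold change 0.49, SE 0.05, adjusted p = 3.06e-13). Lhfpl4, which anchors GABA receptors at synapses, ranged from 0.968 to 3.04 CPM at 9 months (median 1.905) and from 4.58 to 6.34 CPM (median 5.62) at 24 months, without overlap (log2 fold change 1.497, adjusted p = 1.42e-17). Clca4b, of a family of proteins secreted by epithelia, rose from a median of 5.49 to 14.4 CPM (log2 fold change 1.40, SE 0.32, adjusted p = 0.00154).

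Among the falls of lowest p, again of genes that average at least 1 CPM, Cstf2t, an autosomal copy of a polyadenylation factor, ranged from 37.6 to 46.2 CPM at 9 months (median 43.5) and from 21.4 to 35.6 CPM at 24 months (median 27.4), without overlap (log2 fold change -0.62, SE 0.05, adjusted p = 4.86e-18). Zfp37, a zinc finger factor, ranged from 5.01 to 10.1 CPM at 9 months (median 7.23) and from 2.95 to 4.22 CPM at 24 months (median 3.99), again without overlap (log2 fold change -0.95, SE 0.07, adjusted p = 1.47e-18). It was at 9.49 ± 1.11 CPM (n = 16) at 3 months, 5.66 ± 0.876 (n = 16) at 15 months and 3.25 ± 0.414 (n = 18) at 28 months. Lipo3, of a lipase family, fell from a median of 9.10 to 4.92 CPM (log2 fold change -0.90, SE 0.07, adjusted p = 3.69e-18). Kremen2, a receptor for the Wnt inhibitor Dkk1, fell from a median of 7.45 to 3.02 CPM, with 15 of 17 mice below every mouse at 9 months (log2 fold change -1.29, SE 0.11, adjusted p = 3.79e-15). Map10, a microtubule protein (-1.08, adjusted p = 8.23e-14), Mageh1, an X-linked MAGE protein (-0.64, adjusted p = 8.23e-14), and Casc4 (-0.65, adjusted p = 3.74e-12) fell too, and Map10 and Mageh1 did so without overlap.

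With the same limit of 1 CPM, genes of other kinds were among the 12 largest falls by fold. S100g, the vitamin D-responsive calcium binder calbindin-D9k, ranged from 1.42 to 34.1 CPM at 9 months (median 9.04) and from 0.254 to 14.1 CPM at 24 months (median 3.13) and so overlapped widely (log2 fold change -1.67, SE 0.37, adjusted p = 0.00122). Ugt8a, the enzyme that makes galactosylceramide, ranged from 2.57 to 7.81 CPM at 9 months (median 4.77) and from 0.328 to 3.62 CPM at 24 months (median 1.43) (log2 fold change -1.60, SE 0.23, adjusted p = 1.71e-07). Kcnj2, an inward rectifier potassium channel, ranged from 1.94 to 4.66 CPM at 9 months (median 3.32) and from 0.979 to 1.78 CPM at 24 months (median 1.21), without overlap (log2 fold change -1.31, SE 0.15, adjusted p = 7.19e-11). Epop, a partner of Polycomb repressive complex 2 (-1.15, adjusted p = 4.09e-05), Mal, a proteolipid of apical membranes (-1.10, adjusted p = 1.50e-05), Pbp2 (-1.14, adjusted p = 4.64e-04), the antimicrobial lectin Reg3a (-1.13, adjusted p = 0.0068) and Cps1, the first enzyme of the urea cycle (-1.16, adjusted p = 0.0468), fell by between 1.10 and 1.16 on the log2 scale.

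Of 12 tested genes of Paneth and small intestinal cells 2 rose and 2 fell (median 0.03). Those that fell were Sis, the sucrase-isomaltase of the small intestine, from a median of 11.8 to 5.97 CPM (-0.93, adjusted p = 0.00507), and the ileal bile acid transporter Slc10a2 (-0.64, adjusted p = 0.00147). Those that rose were the alkaline phosphatase Alpi (0.27, adjusted p = 0.0433) and the adenosine deaminase Ada (0.20, adjusted p = 0.029).

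**Figure D4:**
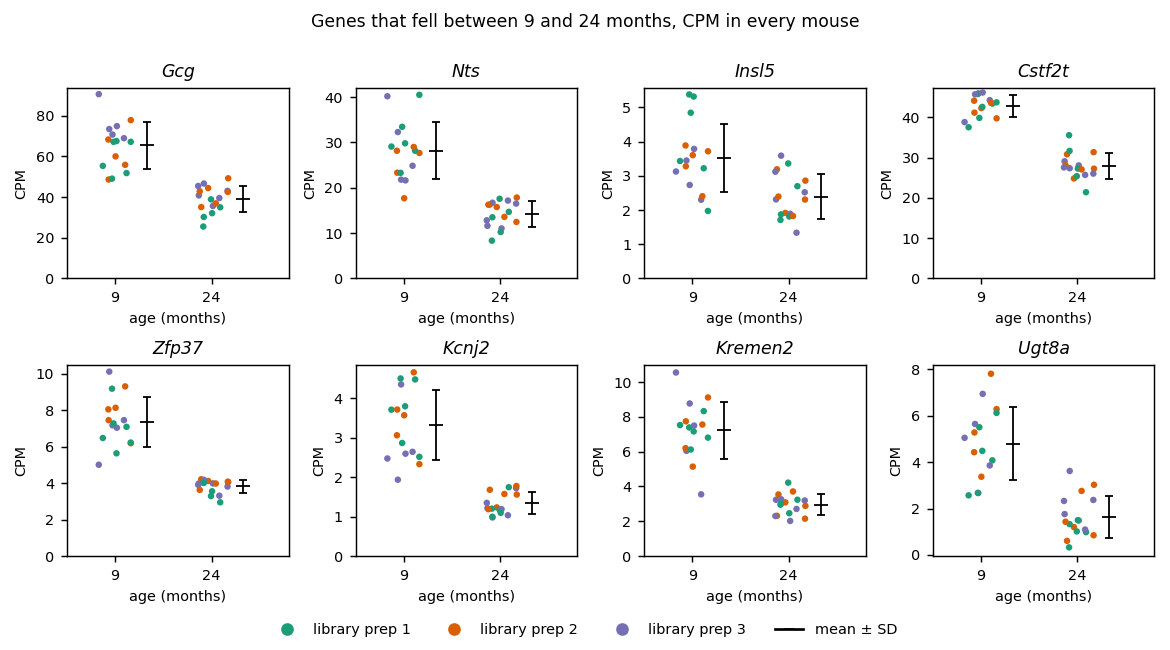
CPM (y axes, linear) of 8 genes that fell, in every mouse at 9 months (n = 16) and 24 months (n = 17), colored by library prep, with the mean and SD beside the points. Cstf2t, Zfp37 and Kcnj2 do not overlap between the ages, while the other 5 do, Gcg and Nts by a single mouse at 24 months each.

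The counts of the metabolic lists stand beside 8.93% higher and 6.55% lower over all genes tested. All 75 tested nuclear subunits of the respiratory chain had a log2 fold change below 0 (median -0.08) and 15 passed the test, led by Atp5j2 (-0.13, adjusted p = 0.0625), Cox7b (-0.13, adjusted p = 0.0483) and Uqcrh (-0.12, adjusted p = 0.0634). Within the preps the median was 0.01, -0.04 and -0.19, so that most of the fall lay in prep 3. The number that passed was 4 without the 3 mice and 3 without the 2 mice, with medians of -0.09 and -0.07. Of 15 transcripts of the mitochondrial genome 3 fell, mt-Nd4 (-0.15, adjusted p = 0.0125), mt-Cytb (-0.14, adjusted p = 0.00837) and mt-Nd2 (-0.13, adjusted p = 0.0231), and 1 rose, mt-Atp8, which overlaps mt-Atp6 (0.63, adjusted p = 0.0808), whose log2 fold change of 1.42 in prep 3 stood beside 0.01 and 0.19 in preps 1 and 2 and which passed neither without the 3 mice nor without the 2 mice. Of 39 genes of cholesterol and fatty acid synthesis 6 rose and 0 fell, first Scd2 (0.39, adjusted p = 0.0167), Fads1 (0.36, adjusted p = 8.86e-04) and Srebf1, the master factor of fatty acid synthesis (0.29, adjusted p = 0.00511). Of 32 genes of fatty acid oxidation and ketogenesis 1 rose, the fatty acid carrier Cd36 (0.42, adjusted p = 0.0641), and 3 fell, among them Hsd17b2 (-0.27, adjusted p = 0.0137) and Slc25a20 (-0.13, adjusted p = 0.0734). Of 22 clock genes 6 rose and 0 fell, among them Bhlhe41 (0.43, adjusted p = 0.0352) and Cry2 (0.31, adjusted p = 0.0173).

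The counts of defense and stress genes stand beside the same shares of 8.93% and 6.55%. Of 53 antioxidant and conjugating enzymes 5 rose, first the extracellular superoxide dismutase Sod3 (0.40, adjusted p = 0.00243), Gsta1 (0.37, adjusted p = 0.00774) and Gsta2 (0.36, adjusted p = 0.0253). In the same list 8 fell, first the heme oxygenase Hmox1 (-0.64, adjusted p = 0.00346), Gsto2 (-0.46, adjusted p = 0.0253) and Prdx6 (-0.41, adjusted p = 3.78e-04). Of 37 cytochrome P450 genes 4 rose, with Cyp3a25 (0.92, adjusted p = 0.0135), Cyp1b1 (0.90, adjusted p = 4.75e-04) and Cyp3a11 (0.78, adjusted p = 0.0415) first. Another 4 fell, with Cyp2d9 (-0.39, adjusted p = 0.0976), Cyp2d10 (-0.30, adjusted p = 0.0346) and Cyp4f16 (-0.17, adjusted p = 0.0764) first. Of 31 genes of folding in the endoplasmic reticulum 0 rose and 5 fell, first Pdia5 (-0.19, adjusted p = 1.42e-04), Dnajb9 (-0.17, adjusted p = 0.0669) and Pdia6 (-0.15, adjusted p = 0.0856), and 2 of the list without the 3 mice. Of 24 heat shock genes 2 rose, Hspb7 (0.48, adjusted p = 0.023) and Hspb1 (0.39, adjusted p = 0.0864), and 0 did without the 3 mice. Of 28 senescence and p53 genes 1 rose, the urokinase receptor Plaur (0.33, adjusted p = 0.0111). The 3 that fell were the senescence-associated galactosidase Glb1 (-0.17, adjusted p = 0.00359), Cdkn1a, which encodes the cell cycle inhibitor p21 (-0.14, adjusted p = 0.0963), and the p53 regulator Mdm2 (-0.13, adjusted p = 0.0297). Of 27 genes of DNA methylation and Polycomb complexes 2 rose, Cbx7 (0.24, adjusted p = 0.00238) and Pcgf5 (0.12, adjusted p = 0.0411), and 1 fell, Cbx8 (-0.21, adjusted p = 0.0122). Of 82 cytosolic ribosomal genes 2 fell, Rps4l (-1.06, adjusted p = 4.17e-08) and Rps10 (-0.24, adjusted p = 0.0985).

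The lists of B cells (2 of 21 called, both higher), mesothelium (4 higher and 1 lower of 11), granulocytes (5 higher and 1 lower of 8), immediate early genes (1 higher and 1 lower of 25), skeletal muscle and squamous epithelium (1 higher of 6), adipocytes (0 of 13) and red blood cells (0 of 6) were small or gave few calls. At an unadjusted p below 0.05 edgeR counted 1 adipocyte gene and 1 red blood cell gene, and DESeq2 called 1 and 0 of them. Other lists gave fewer calls with mice left out. Leaving out the 3 mice low in smooth muscle RNA, the test passed 3 of 26 T cell genes, 4 of 33 antimicrobial genes, 5 of 37 cytochrome P450 genes, 2 of 32 fatty acid oxidation genes, 1 of 15 glial genes and 1 of 25 immediate early genes, and 0 of the cell cycle, posterior Hox, interstitial cell and mast cell genes. Leaving out the 2 mice with acinar RNA, it passed 1 of 27 neuron genes, 3 of 13 tuft cell genes, 2 of 31 folding genes (1 higher and 1 lower), 1 of 24 heat shock genes, 1 of 25 immediate early genes, 1 of 82 ribosomal genes, 1 of 7 mast cell genes and 0 posterior Hox genes. Mesothelial genes had 0 higher and 1 lower without the 3 mice and also without the 2 mice, with medians of 0.44 and 0.28 in place of 0.47. The summed CPM of the adipocyte list ranged from 389 to 800 at 9 months and from 358 to 1048 at 24 months.

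The spread between mice was not larger at 24 months. After the mean of each age and prep was taken out, the SD of log2 CPM (prior count 2) had a median over 18325 genes of 0.197 at 9 months and 0.172 at 24 months, and it was larger at 24 months in 33.5% of genes. The 3 mice low in smooth muscle RNA are among the 9-month mice.

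The 15-month and 28-month mice, 34 in all, gave a late-life comparison that shares no mouse with the one above, although both were fitted in 1 model. Between 15 and 28 months 7761 of the 18325 genes passed (42.4%), 20.2% of all genes higher and 22.2% lower at 28 months. Of the 2837 genes called between 9 and 24 months 1858 were called there too (65.5%, or 23.9% of the 7761), 1813 of them in the same direction. The sign was the same for 89.5% of the 2837 genes and for 69.6% of all genes tested. The rises of Tfap2a (4.47), Mmp12 (2.63), Dmrta2 (2.32) and Gpnmb (2.03) and the falls of S100g (-2.08), Spp1 (-1.67) and Nts (-1.17) were all above 1 in absolute log2 fold change in those mice. Other genes behaved otherwise. Pbp2 rose (0.53, adjusted p = 0.0657), Ighg1 (1.01, adjusted p = 0.111) and Mal (-0.24, adjusted p = 0.327) did not pass, and Slc10a2 (0.48, adjusted p = 0.00618) and Ido1 (0.75, adjusted p = 0.012) rose as well. Endothelial genes had a median of 0.22 there (16 higher and 0 lower of 23) and complement genes of 0.28 (16 higher and 2 lower of 26), whereas plasma cell genes had a median of -0.35 (2 higher and 13 lower of 22).

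**Figure D5:**
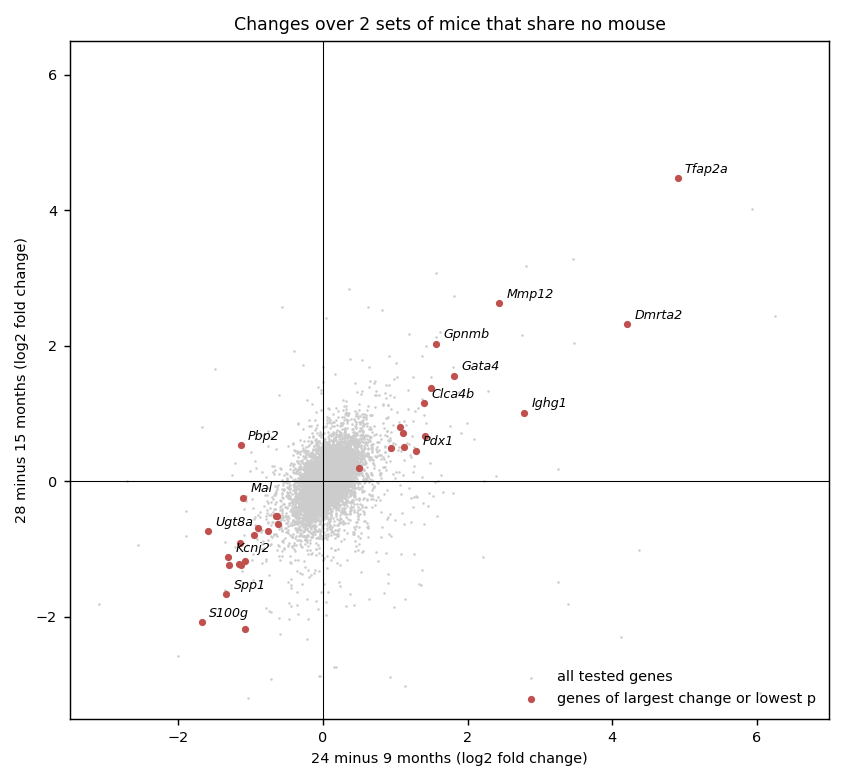
Log2 fold change between 9 and 24 months (x axis) and between 15 and 28 months (y axis) of all 18325 tested genes (grey) and of the 33 genes of largest change or lowest p (red). Tfap2a, Mmp12 and Dmrta2 lie far from 0 on both axes, and Pbp2 lies on opposite sides of 0.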

How the data were processed

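Per the labels and the methods, the authors made stranded poly(A) libraries from colon RNA, sequenced them as read pairs, trimmed the reads with cutadapt 2.8, aligned them to GRCm38.p6 (mm10) with HISAT2 2.1.0 and counted them on genes with featureCounts (Subread 2.0.1). The deposited values are raw counts, 1 column a mouse, with no normalization. The table holds 37764 genes, of which 37652 were found in the GENCODE annotation used here for symbols and lengths. All 83 mice were fitted together in edgeR 4.0.16 (R 4.3.3) with filterByExpr by age, TMM and a quasi-likelihood model of age group and library prep. The contrast of 24 and 9 months was put to its quasi-likelihood F-test with Benjamini-Hochberg adjustment over 18325 genes and a threshold of 0.1. The SE is the absolute log2 fold change divided by the square root of F. CPM uses the TMM-scaled library. P-values measure the spread between mice.

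Genes named are the 12 largest rises and falls and the 8 rises and falls of lowest p among called genes that average 1 CPM or more, with the same direction in the 3 preps and a symbol of no antigen receptor segment or predicted gene, and in each of 51 lists at most the 3 largest called rises and falls, or with none the most counted member. Cdx2, Igha, Ighm, Fcgbp, Mylk and the genes under other observations were named after their values were seen, as were the lists of calls spelled out in full. The members and lists were chosen with earlier results of these data known. Alternatives were DESeq2 1.42.0, its size factors, 2 other filters, no prep term, the replicate block, a fit of 2 ages, a threshold of 0.05, leaving out each mouse, and, chosen after seeing the data, leaving out mice under 2/3 of the median smooth muscle sum or over 2 times the median acinar sum. Figures and tables used Python 3.11.15, numpy 2.4.6, pandas 2.3.3 and matplotlib 3.10.9. DNA methylation was not analysed here, and some genes that the rule names are not reported here.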

Additional observations from a re-analysis of the deposited data

How the results depend on the processing

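The number of genes called between 9 and 24 months, 2837, was 3118 with DESeq2, 2882 with its size factors, 2284 with no filter on low counts, 2759 with at least 10 counts in every mouse, 2583 with no prep term, 3183 in a fit of only these ages and 1898 at an adjusted p below 0.05, where the number lower fell from 1201 to 769. Leaving out 1 mouse gave 2400 (without the mouse at 24 months with replicate number 15) to 3291 (without number 7), with 1327 to 1836 higher and 939 to 1600 lower, and the share of calls that were higher, 57.7%, was between 50.3% and 62.0%. At least 10 counts in every mouse gave a share of 49.6%. Of 196 called genes named, 152 were called whichever mouse was left out, and 0 changed sign. Without the 3 mice low in smooth muscle RNA 46 of the named genes no longer passed, and without the 2 mice with acinar RNA 30, while Pnliprp1 reversed (log2 fold change -0.0506), and no other named gene reversed under the alternatives run. The count between 15 and 28 months, 7761, was 6425 at an adjusted p below 0.05 and between 6867 and 7934 otherwise. The ratio of the spreads at 24 and 9 months, 0.874, was 0.852 over genes that average 1 CPM or more and 0.874 with a prior count of 0.5. The age by prep count of 0 in edgeR was given no alternative but the lower threshold, and 387 genes had an unadjusted p below 0.05. Mice of the same replicate number did not deviate together (16 pairs, correlation -0.161 to 0.149, and 1 of 16 closest to its own number). With the number as a replicate block, 2790 genes were called, 1670 higher and 1120 lower.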

Other observations

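Further regulator genes, chosen after their values were seen, were higher at 24 months. Otx1, a homeobox factor of the developing brain, had 3 read pairs in all at 9 months, 1 each in 3 of 16 mice, and 334 at 24 months, with 7 to 29 per mouse. It was at 0.0563 ± 0.0452 CPM at 15 months (n = 16) and at 0.966 ± 0.329 at 28 months (n = 18). Dmrta2os, the antisense neighbor of Dmrta2, had 5 read pairs in 4 mice at 9 months and 588 at 24 months, with 20 to 49 per mouse; counting was by strand. Irx2, an Iroquois homeobox factor, ranged from 0.0236 to 0.311 CPM at 9 months (median 0.149) and from 0.836 to 1.63 CPM at 24 months (median 1.04), without overlap (adjusted p = 5.41e-20). Lin28b, an RNA-binding protein of fetal tissue, had 26 read pairs at 9 months and 353 at 24 months (log2 fold change 3.47, SE 0.26, adjusted p = 2.47e-18). Onecut2 (log2 fold change 1.36, SE 0.23, adjusted p = 1.04e-05) and Gata3 (log2 fold change 0.87, SE 0.13, adjusted p = 4.57e-07) rose less. Not every factor of these families was shown to move, since Gata5 (0.12, adjusted p = 0.615), Gata6 (-0.08, adjusted p = 0.126) and Sox2 (0.22, adjusted p = 0.583) did not pass. Klrg1, a receptor of long-experienced lymphocytes, rose from a median of 0.812 to 1.61 CPM (log2 fold change 0.86, SE 0.15, adjusted p = 2.28e-05).

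Armcx3, an X-linked gene chosen after its values were seen, ranged from 19.1 to 25.5 CPM at 9 months (median 21.7) and from 13.8 to 18.5 CPM at 24 months (median 16.2), without overlap (log2 fold change -0.44, SE 0.05, adjusted p = 3.96e-10).

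The log2 fold change rose with the length of the transcript, and did so in 1 library prep. Protein-coding genes were divided into 10 classes by merged exon length. The median was -0.03 in the shortest class (66 to 1712 bases, n = 1527) and 0.02 in the longest (9777 to 123179 bases, n = 1527), and the share called lower at 24 months was 10.4% and 3.67%. Within preps 1, 2 and 3 the median of the shortest class was 0.01, 0.01 and -0.10 and that of the longest -0.01, 0.01 and 0.07. Between 15 and 28 months the medians were -0.06 and 0.02. The respiratory chain subunits, which are short, also had their largest fall in prep 3. The part of transcript length in the calls was not tested.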
